A study of Mus musculus with 20 samples.

Results

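The 77 genes described here encode proteins of the mitochondrial ribosome. They are the rows of the deposited heart table whose symbol begins with Mrpl or Mrps and a number, without the 4 symbols marked as pseudogenes, and with 10 or more counts in no fewer than 3 libraries. All 77 had at least 10 counts in each of the 20 libraries (the lowest single count was 50, for Mrps18c), and 0 further symbols of this form fell below the minimum, so no gene lay just outside it. They are 77 of 29339 genes in the table and of 15187 genes that met the same count minimum, with 48 Mrpl symbols and 29 Mrps symbols.

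Hearts of C57BL/6 mice aged 8 weeks, wild type (WT) or deficient in Tecrl (Tecrl-/-, here KO), were sequenced after poly-A selection. Tecrl encodes a protein of the endoplasmic reticulum that has been linked to arrhythmia. By label, 5 libraries came from male WT hearts and 5 from male KO hearts, while 3 came from female WT and 7 from female KO hearts. The study compared KO with WT hearts within each sex. The library names form 2 series, one numbered S1 to S12 with 3 libraries in each group, the other named WT or TKO with a number. The second series, called WT/TKO here, holds WT1 and WT2 (male WT), TKO5 and TKO6 (male KO) and TKO1 to TKO4 (female KO), with no female WT library. Which part of Tecrl the KO allele removes is not given in the sources used here.

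Mitochondria carry their own genome, whose messenger RNAs encode core subunits of the respiratory chain and of ATP synthase. These are translated by a separate ribosome inside the organelle. Its RNA is made in the mitochondrion, while all of its proteins are encoded by nuclear genes, made in the cytosol and imported. The large subunit (Mrpl) forms peptide bonds and the small subunit (Mrps) decodes the message, and heart muscle depends on both for oxidative phosphorylation. Some of the proteins have counterparts in bacterial ribosomes and others were added in mitochondria.

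The symbol does not always give the place of the protein. Mrps30 and Mrps18a are named as small subunit proteins but sit in the large subunit. Mrps36 was later assigned to the 2-oxoglutarate dehydrogenase complex. These 3 were kept, since the rule goes by symbol. Mrpl53 and the 2 mitochondrial ribosomal RNAs were not analysed here.

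The promoters of 5 members are shown first because their genes carry the comparisons below or show the range of motif content. Of the 77 members, 68 were found in the RefSeq promoter table (GRCm38.p6, 74 promoters, from 250 bases before to 50 bases after the start), and the other 9 were not found there. Capitals mark matches to 4 letter strings searched on both strands, namely GCATGCGC (NRF1), CCGGAAG (ETS family), AAGATGGC (YY1) and GGGCGGG (SP family). Mrps12 lies at chr7:28741772-28742071 on the minus strand, Mrps18b at chr17:35916391-35916690 on the minus strand, Mrpl10 at chr11:97041332-97041631 on the plus strand, Mrpl12 at chr11:120484387-120484686 on the plus strand and Mrpl50 at chr4:49521034-49521333 on the minus strand. Each is written from 5′ to 3′ along its gene.
Mrps12: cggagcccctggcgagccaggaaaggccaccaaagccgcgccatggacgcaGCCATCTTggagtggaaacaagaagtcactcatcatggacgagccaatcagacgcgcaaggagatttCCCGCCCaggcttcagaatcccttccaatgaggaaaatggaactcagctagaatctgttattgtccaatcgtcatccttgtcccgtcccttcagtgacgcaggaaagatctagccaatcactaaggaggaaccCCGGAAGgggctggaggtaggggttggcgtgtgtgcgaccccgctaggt
Mrps18b: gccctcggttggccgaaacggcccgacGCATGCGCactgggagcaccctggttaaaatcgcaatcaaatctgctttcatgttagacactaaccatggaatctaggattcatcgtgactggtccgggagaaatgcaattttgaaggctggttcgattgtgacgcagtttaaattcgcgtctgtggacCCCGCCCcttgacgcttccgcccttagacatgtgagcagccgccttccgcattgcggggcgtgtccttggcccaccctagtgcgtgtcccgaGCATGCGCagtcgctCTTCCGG
Mrpl10: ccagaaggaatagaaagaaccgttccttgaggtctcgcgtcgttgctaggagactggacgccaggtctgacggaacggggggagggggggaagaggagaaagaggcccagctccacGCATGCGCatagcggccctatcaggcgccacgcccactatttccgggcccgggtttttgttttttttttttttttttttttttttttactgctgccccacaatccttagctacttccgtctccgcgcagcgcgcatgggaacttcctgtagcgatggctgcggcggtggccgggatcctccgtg
Mrpl12: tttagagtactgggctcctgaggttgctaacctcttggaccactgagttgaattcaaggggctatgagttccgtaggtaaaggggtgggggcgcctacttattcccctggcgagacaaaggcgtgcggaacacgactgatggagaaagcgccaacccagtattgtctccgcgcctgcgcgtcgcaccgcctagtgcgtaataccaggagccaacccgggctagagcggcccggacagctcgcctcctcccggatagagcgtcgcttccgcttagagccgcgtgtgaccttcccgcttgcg
Mrpl50: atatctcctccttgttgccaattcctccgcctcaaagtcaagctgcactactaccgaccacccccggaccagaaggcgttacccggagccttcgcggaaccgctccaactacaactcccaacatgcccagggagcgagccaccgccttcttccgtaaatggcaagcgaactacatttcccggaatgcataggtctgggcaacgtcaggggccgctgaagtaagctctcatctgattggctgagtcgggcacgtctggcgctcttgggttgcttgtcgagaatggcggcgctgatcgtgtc

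Mrps12, the protein of the decoding centre, had an ETS, a YY1 and an SP match in this window. Mrps18b, listed here among the mitochondria-specific small subunit proteins, had NRF1 matches at 2 positions beside an ETS and an SP match. Mrpl10, which anchors the stalk that recruits translation factors, had 1 NRF1 match. No match was found in the windows of Mrpl12 (the stalk protein bound to Mrpl10) and Mrpl50.

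Over the 74 member promoters, the ETS string was present in 33.8%, against 8.86% of all 32851 promoters of the table. The YY1 string was found in 16.2% against 2.75%, and the NRF1 string in 10.8% against 2.71%. The SP string was found in 43.2% against 25.6%, and the E-box CACGTG in 9.46% against 7.15%. The median GC content was 58.5% in member promoters and 52.7% in all promoters. These are matches of letters, not binding sites, and the shares were not tested.

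The members lie on 17 chromosomes (GRCm38, GENCODE release 21). A protein-coding neighbour on the opposite strand, starting at most 1000 bases upstream, was found for 18 members (23.4%). The same held for 1402 of 17883 protein-coding genes of the table (7.84%). Divergent pairs whose 5′ ends overlap were not counted, such as Mrps11 and Mrpl46, which share 173 exon bases. Mrps12 starts 172 bases from Sars2, which encodes the mitochondrial seryl-tRNA synthetase. Mrpl50 starts 83 bases from Zfp189, Mrps18b starts 45 bases from Ppp1r10, and Mrpl10 starts 153 bases from Lrrc46. In 30 members (39.0%) exons overlap those of another gene of the table. The library kit named in the labels does not mark strand in its standard form, so reads in these shared stretches cannot be told apart. Among the genes named below this holds for Mrps25 (4590 bases with Nr2c2), Mrps18b (638 bases shared with Gm16279), Mrpl47 (1068 bases), Mrps34 (1309 bases with Mapk8ip3), Mrps6 (464 bases, with Slc5a3 and Gm49711), Mrpl19 (1962 bases with Gcfc2), Mrps30 (623 bases), Mrps18c (250 bases), Mrpl3 (248 bases), Mrpl10 (240 bases), Mrpl12 (200 bases), Mrpl9 (157 bases), Mrpl44 (126 bases), Mrpl14 (106 bases), Mrpl49 (91 bases), Mrpl27 (75 bases), Mrpl36 (30 bases) and Mrpl58 (2 bases).

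Total counts ran from 12540002 to 20038593 per library, and transcripts of the mitochondrial genome took 15.3% to 30.4% of them. Tecrl was present at 51.5 to 124.5 CPM (counts scaled to library size) in every library and did not separate the labels: 81.6 ± 20.8 CPM over 8 libraries labelled WT (mean and SD) against 85.8 ± 12.4 CPM over 12 labelled KO. S4, S5 and S6 are labelled female KO but had 182.04 to 202.5 CPM of the 4 Y-linked genes and at most 0.255 CPM of Xist. S7, S8 and S9 are labelled male WT but had 250.02 to 319.8 CPM of Xist and no Y-linked count. In the S series, the genotype label and the sex-linked transcripts therefore coincide and cannot be told apart. Whether S4 to S6 and S7 to S9 had their labels exchanged, and with them their genotypes, was not tested. S7, S9, S11 and S12 also had high atrial transcripts, a sum of 2194 to 7609 CPM over 6 markers that were all detected in each group, against 11.2 to 579.9 CPM in the other 16 libraries. The labels were kept, and the comparisons below are also given without those of these libraries that enter them. In whole heart RNA, fewer cells of a type and less RNA per cell cannot be told apart.

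The members covered a 109-fold range of length-normalized level. FPKM, fragments scaled to gene length and library depth, is the authors' value and is used here for levels between genes. Mrps21, a small protein of the small subunit, was the highest at 167.4 ± 22.3 FPKM (SD, n = 20). It was followed by Mrpl34 (111.3 ± 17.9 FPKM), Mrps23 (79.7 ± 9.79 FPKM), Mrpl55 (79.4 ± 10.2 FPKM) and Mrpl2 (75.3 ± 6.32 FPKM). The last 4 of these overlapped in their ranges over libraries, and Mrps21 overlapped with Mrpl34.

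The lowest level was 1.53 ± 0.363 FPKM for Mrpl33, with Mrps10 (3.14 ± 0.309 FPKM), Mrpl19 (4.03 ± 0.591 FPKM), Mrps30 (4.07 ± 0.479 FPKM) and Mrps22 (4.197 ± 0.707 FPKM) next. Of the low genes, Mrpl33 and Mrps10 have table lengths of 7326 and 8079 bases, against 739 bases for Mrps21. The authors' length sums the exons of all isoforms, so a gene with long rare isoforms is given a low FPKM. On CPM, which ignores length, Mrps10 had 25.4 CPM, while Mrpl33 at 11.2 CPM was still among the lowest members. Mrps18c was the lowest at 5.93 CPM, followed by Mrps18b at 9.82 CPM.

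**Figure D1:**
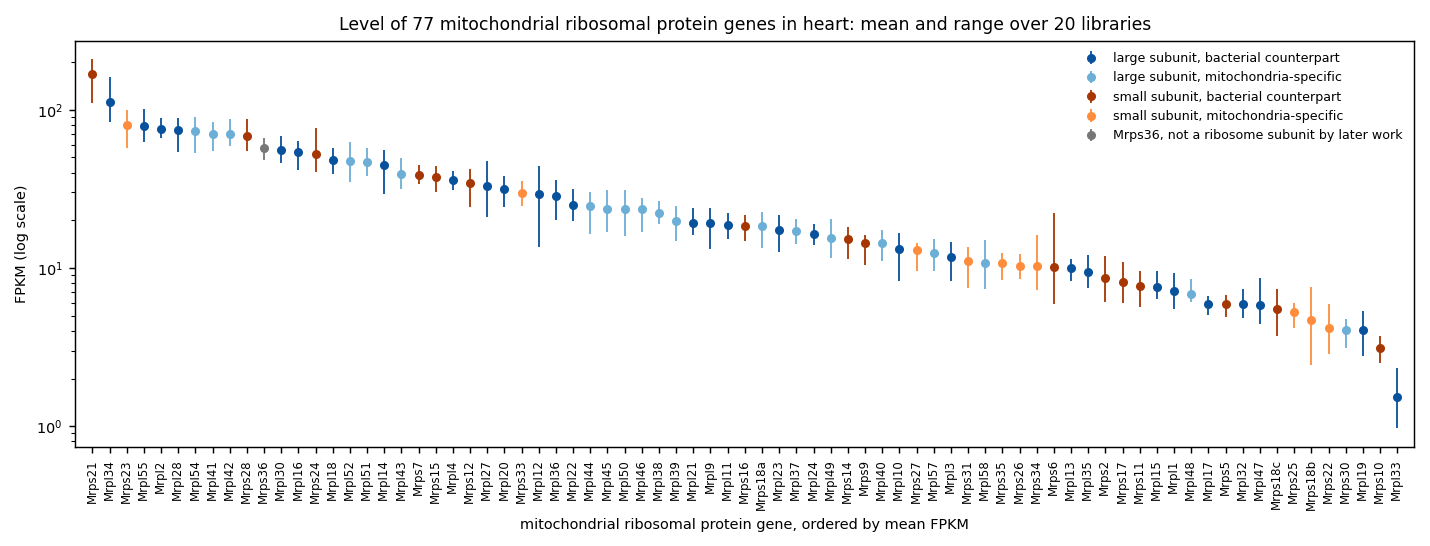
Mean FPKM (log scale) of the 77 mitochondrial ribosomal protein genes with the range over 20 libraries, ordered by mean and coloured by subunit and by presence of a bacterial counterpart. Levels run from 1.53 FPKM for Mrpl33 to 167.4 FPKM for Mrps21, and all 5 classes are mixed along the order.

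The median member had 18.4 FPKM, and 38 members lay within 2-fold of it. Proteins of the large subunit found only in mitochondria had a median of 22.8 FPKM (20 genes), and those with a bacterial counterpart 19.2 FPKM (30 genes). For the small subunit these medians were 10.5 FPKM (10 genes) and 14.8 FPKM (16 genes), and the ranges of the 4 classes over their genes overlapped. The 3 members whose symbol does not give their place had 57.0 ± 4.52 (Mrps36), 18.4 ± 2.66 (Mrps18a) and 4.07 ± 0.479 FPKM (Mrps30). For comparison, 91 cytosolic ribosomal protein genes had a median of 125.2 FPKM and the median over all 15187 genes was 2.77 FPKM. The order of the members by FPKM was nearly the same in each heart, with Spearman correlations across genes of at least 0.948 between libraries and a median of 0.986. Genes are not independent replicates, and these correlations are given as a description.

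Between libraries the members moved little. The SD of log2 CPM over the 20 libraries had a median of 0.20 for the members, 0.25 for the cytosolic ribosomal proteins and 0.33 for all genes, whose typical counts are lower (a median of 189 counts per library against 747 for the members). Mrpl17, at the exit of the peptide tunnel, was the steadiest member with an SD of 0.12 and 39.3 to 55.4 CPM. For 56 members the highest library was under 2 times the lowest, and for 2 it was over 3 times.

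The most variable members were Mrpl12, Mrps6 and Mrps18b, with SDs of 0.42, 0.35 and 0.33. Mrpl12 ran from 22.6 CPM in S2 to 69.1 CPM in S6. Mrps6, a small subunit protein with a bacterial counterpart, was at 32.5 CPM in S11 and at 9.52 to 20.7 CPM in the other 19 libraries. Mrps18b ran from 5.55 CPM in S2 to 15.8 CPM in S1, 2 libraries of the same labelled group.

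Large and small subunit transcripts kept a nearly constant proportion. Summed over the genes of each symbol, Mrpl transcripts ranged from 2324 CPM in S7 to 3552 CPM in S6 and Mrps transcripts from 1162 CPM in S7 to 1719 CPM in S6. Their ratio stayed between 1.95 and 2.11 in all 20 libraries (2.03 ± 0.0516, SD). The ratio was 2.03 ± 0.0604 in the libraries labelled WT (n = 8) and 2.04 ± 0.0472 in those labelled KO (n = 12), so it did not separate the genotypes. In the S series it was 2.02 ± 0.0581 (n = 12) and in the WT/TKO series 2.05 ± 0.0393 (n = 8). Member reads made up 0.379% to 0.514% of all counts.

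**Figure D2:**
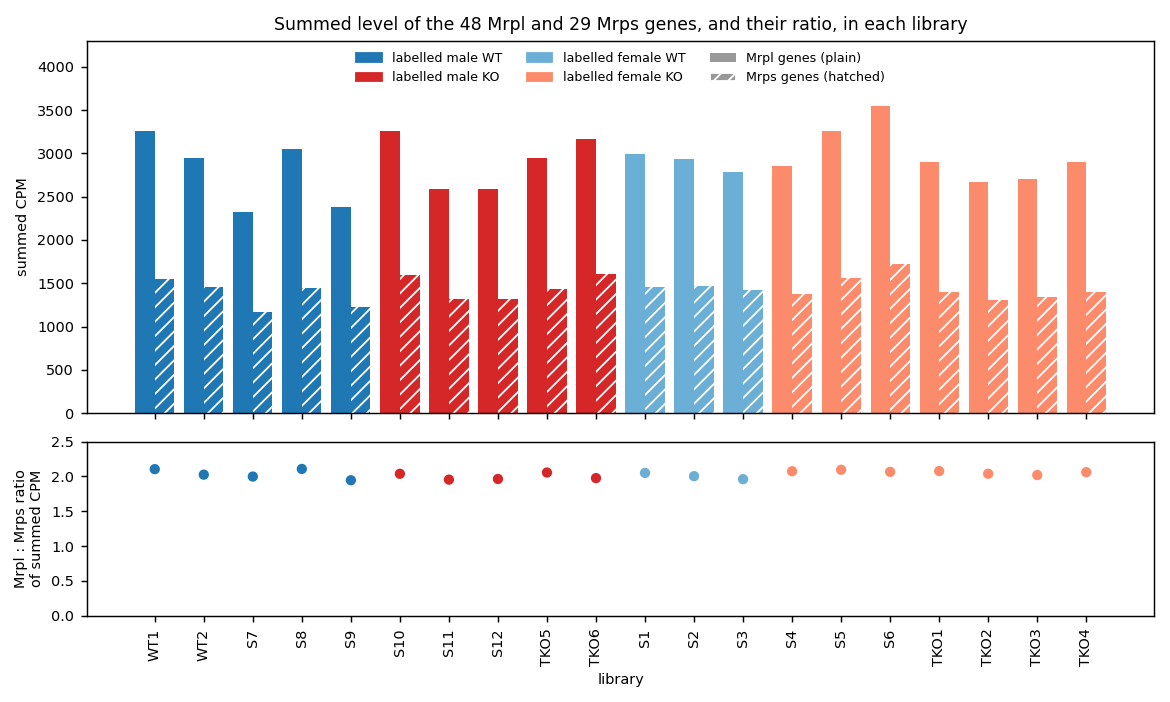
Summed CPM of the 48 Mrpl genes (plain bars) and 29 Mrps genes (hatched bars) in each library, coloured by labelled group, with their ratio in the lower panel. Sums are lowest in S7 and highest in S6, while the ratio lies between 1.95 and 2.11.

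The summed level of all 77 members was 4160 ± 581 CPM in the libraries labelled male WT (n = 5), with S7 at 3486, S9 at 3607, WT2 at 4402, S8 at 4494 and WT1 at 4809 CPM. It was 4363 ± 456 CPM in those labelled male KO (n = 5), with S12 at 3900, S11 at 3909, TKO5 at 4376, TKO6 at 4769 and S10 at 4860 CPM. S7 and S9 were below all male KO libraries, the other male WT libraries lay within the KO range, and the lowest libraries in both groups were those with high atrial transcripts. The libraries labelled female WT had 4202, 4405 and 4456 CPM (S3, S2 and S1; 4354 ± 134 CPM). Those labelled female KO ran from 3982 CPM in TKO2 over a median of 4298 CPM to 5271 CPM in S6 (4421 ± 462 CPM, n = 7), and so spanned the WT values on both sides. No p is given for these sums.

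The members moved together in several libraries. In S6 all 77 members were above their own mean over the 20 libraries, in S5 72 and in S10 71, and their median deviations were 0.28, 0.17 and 0.16 on the log2 scale. In S7 and S9, 68 members each were below their own mean, with median deviations of -0.30 and -0.22. S12 followed with 64 members below and S11 with 59, with median deviations of -0.15 each. The median deviation over all 15187 genes was between -0.03 and 0.02 in every library. Scaling of CPM between libraries keeps this median small by design, so it is no independent comparison. The first principal component held 46.8% of the members' variance and the second 22.6%.

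The 4 libraries with the lowest members were also the 4 with the highest Myl7, the atrial myosin light chain: 1573 CPM in S7, 1481 in S9, 2333 in S11 and 684.1 in S12, against at most 184.4 CPM in the others. S10, S5 and S6, the 3 libraries with the highest members, followed in Myl7 with 184.4, 77.9 and 136.7 CPM. S7 had in addition 674.9 CPM of adipocyte markers (at most 30.4 CPM elsewhere) and the lowest ventricular Myl2 (2863 CPM against 5413 to 10618). Mitochondrially encoded mRNAs were at 137243 CPM in S7 and 174399 CPM in S9, the 2 lowest values, while S12 had 191872 and S11 213539 CPM beside 192224 to 330233 CPM in the other 16 libraries. Cytosolic ribosomal protein genes lay above their own mean in S7, S9 and S11, with median deviations of 0.30, 0.23 and 0.15, and close to it in S12 (-0.01). Their highest value was 0.36 in S2, where the members had 0.02. In the libraries with the highest members they were also high, with 0.29 in S6, 0.16 in S5 and 0.09 in S10, and in TKO2 both were low, with -0.45 for the cytosolic genes and -0.12 for the members. What part atrial tissue, fat or the mitochondrial share has in the level of the members was not tested.

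**Figure D3:**
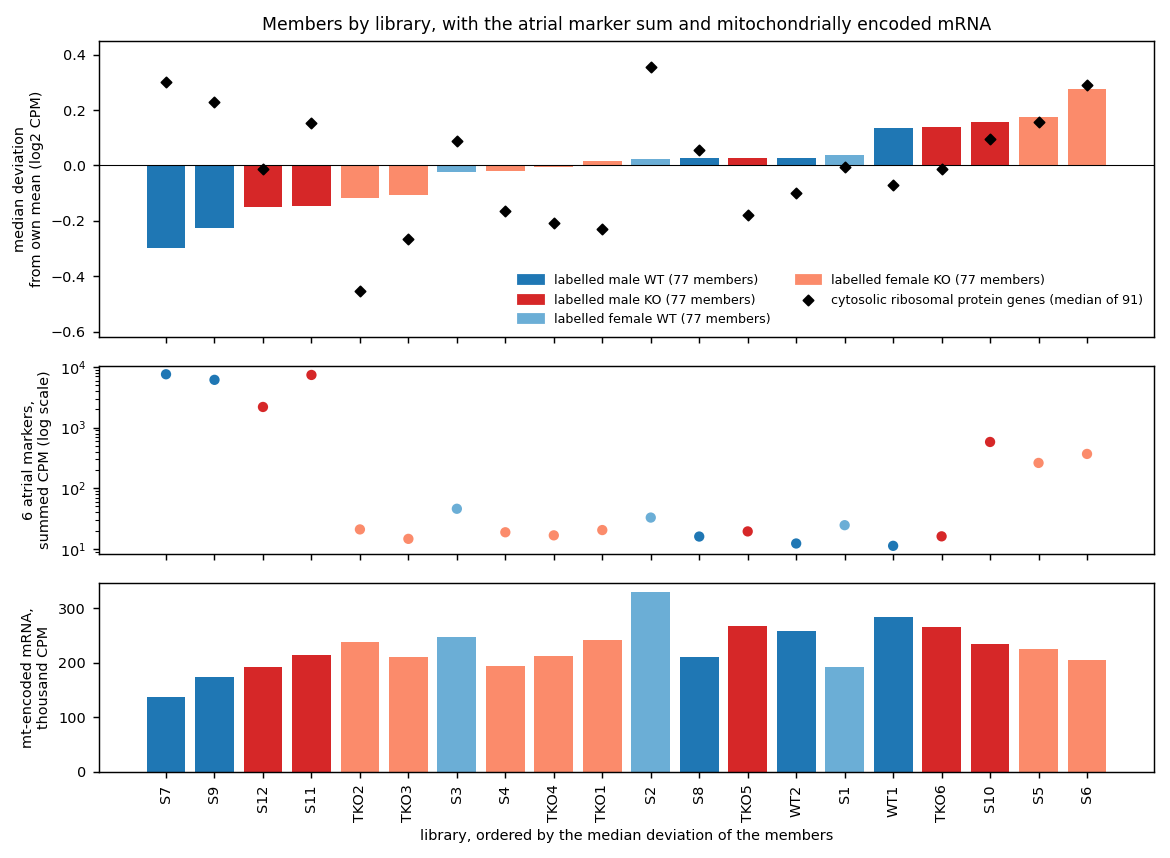
Libraries ordered by the median deviation of the 77 members from their own mean (bars, log2 CPM), with the median of 91 cytosolic ribosomal protein genes (diamonds), the summed CPM of 6 atrial markers (log scale) and mitochondrially encoded mRNA in units of 1000 CPM. S7, S9, S12 and S11 stand lowest and have the highest atrial sums (2194 to 7609 CPM), while the diamonds are positive in S7, S9 and S11 (0.30, 0.23 and 0.15), highest in S2 (0.36) and, like the bars, positive in S6, S5 and S10.

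In the libraries labelled male, no member passed an adjusted p of 0.05 between KO and WT (edgeR quasi-likelihood test with library series as covariate; 0 of 77, background 0% of 14481 genes). DESeq2 called 0 members and 0.0829% of genes. At an unadjusted p under 0.05, 1 member was found, against 4.68% of all genes tested. That gene was Mrps16, a small subunit protein, at 44.05 to 53.4 CPM in WT and 55.6 to 61.1 CPM in KO (log2 fold change 0.21, adjusted p = 0.886, edgeR); it falls outside the rule for named genes and was chosen after its values were seen. Of the 77 members, 55 had a positive log2 fold change, with a median of 0.06 beside -0.01 for all genes. The median was 0.01 without S7, S8 and S9, 0.06 without S7, S9, S11 and S12, and 0.10 with the Myl7 level as covariate.

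The intervals were narrow for most members. In 73 of 77, the 95% interval of the male difference lay within 1.5-fold in either direction, against 7276 of 14481 genes. The lowest log2 fold change was -0.34 for Mrps18b (standard error 0.164), which had 13.2 CPM in S8, 12.3 in S7, 9.92 in WT1, 9.41 in WT2 and 8.76 in S9 among WT and 7.24 to 9.91 CPM in KO. Of the KO libraries, S12, S11 and TKO5 were below all WT values and the others within their range. Mrpl39 (-0.17) and Mrps2 (-0.16) came next, and Mrpl14 (0.28), Mrpl33 (0.26) and Mrps18c (0.22) were at the upper end. Mrpl14 and Mrpl33 are large subunit proteins with bacterial counterparts, and Mrps18c is the counterpart of bacterial S18. All 6 had an adjusted p of 0.886 (edgeR) and overlapping groups. Of the 16 small subunit proteins with a bacterial counterpart, 15 had a positive log2 fold change (median 0.13), and of the 10 found only in mitochondria 4 (median -0.03). None of these lists was tested as a set.

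In the libraries labelled female, the WT libraries are S1 to S3 only. With series as covariate, TKO1 to TKO4 set the series term and only add to the spread, which the S libraries also give. The genotype difference is that of S4 to S6 against S1 to S3. These KO libraries carried Y-linked transcripts and these WT libraries Xist, so each fold change below is also a difference between them and cannot be told apart from genotype. Again no member passed an adjusted p of 0.05 (edgeR, 0 of 77, background 0.0551% of 14511 genes; DESeq2 called 0 members and 2.64% of genes). At an unadjusted p under 0.05 there were 13 members, and 17.9% of all genes. All 13 were higher in KO, where the background of genes higher in KO was 7.19%. Of the 77 members 61 had a positive log2 fold change, and the median was 0.11 beside -0.02 for all genes. The largest value was 0.70 for Mrpl12 (standard error 0.294, adjusted p = 0.253, edgeR), followed by Mrpl10 with 0.48 and Mrpl44 with 0.47. Over 21 alternative fits, Mrpl12 ran from 0.27 to 1.31, Mrpl10 from 0.33 to 0.81 and Mrpl44 from 0.32 to 0.65. Mrpl12 and Mrpl10 form the stalk, and Mrpl44 is a large subunit protein found only in mitochondria. The 4 stalk proteins (Mrpl10, Mrpl11, Mrpl12 and Mrpl54) were all positive with a median of 0.29, while in the libraries labelled male 2 of the 4 were positive with a median of -0.07. The 6 proteins around the peptide exit had medians of 0.06 and -0.01 in the same order. At the other end stood Mrpl58, a peptidyl-tRNA hydrolase built into the ribosome (-0.27), Mrpl47 (-0.23) and Mrpl33 (-0.21).

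The libraries labelled female WT did not form 1 group for these genes. Mrpl12 was at 62.6 CPM in S1, 22.6 in S2 and 24.6 in S3, and at 40.01 to 69.1 CPM in the 7 KO libraries, so S1 lay inside the KO range and the other two below it. Mrpl10 was at 27.1 CPM in S1, 15.2 in S2 and 14.7 in S3, against 22.2 to 28.9 CPM in KO. Mrpl44 was at 41.1, 29.2 and 28.5 CPM in the same order, against 39.95 to 49.6 CPM in KO. Mrpl27, a large subunit protein with a bacterial counterpart, was highest in S2, with 29.6 CPM in S1, 50.6 in S2 and 42.9 in S3, against 21.7 to 45.1 CPM in KO.

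Without S1, 13 members passed the adjusted p of 0.05 (edgeR), all of them higher in KO. The background rose with them, from 0.0551% to 16.9% of 14358 genes, of which 7.91% of all genes were higher in KO. The genotype term without S1 rests on S4 to S6 against S2 and S3, and leaving out S1 alone brought these calls. The members called were Mrpl12 (log2 fold change 1.31), Mrpl10 (0.81), Mrps18b (0.76), Mrps34 (0.71), Mrpl44 (0.65), Mrpl50 (0.62), Mrps31, Mrps2, Mrpl1, Mrps23, Mrpl3, Mrpl39 and Mrpl49, the last 7 between 0.47 and 0.56. Leaving out S2 or S3 instead gave 0 called members. Without S4 to S6, whose sex-linked transcripts go against their label, TKO1 to TKO4 remain against S1 to S3. Genotype and series then coincide, and the fit was made with no series covariate. The median was -0.04, with 0 members called, and cannot be told apart from a series difference. It was -0.02 with the Myl7 level as covariate and 0.03 without the series covariate. With no filter on low counts, Mrpl12 was called (log2 fold change 0.69, adjusted p = 0.00418, edgeR), as were 4.06% of 27319 genes.

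**Figure D4:**
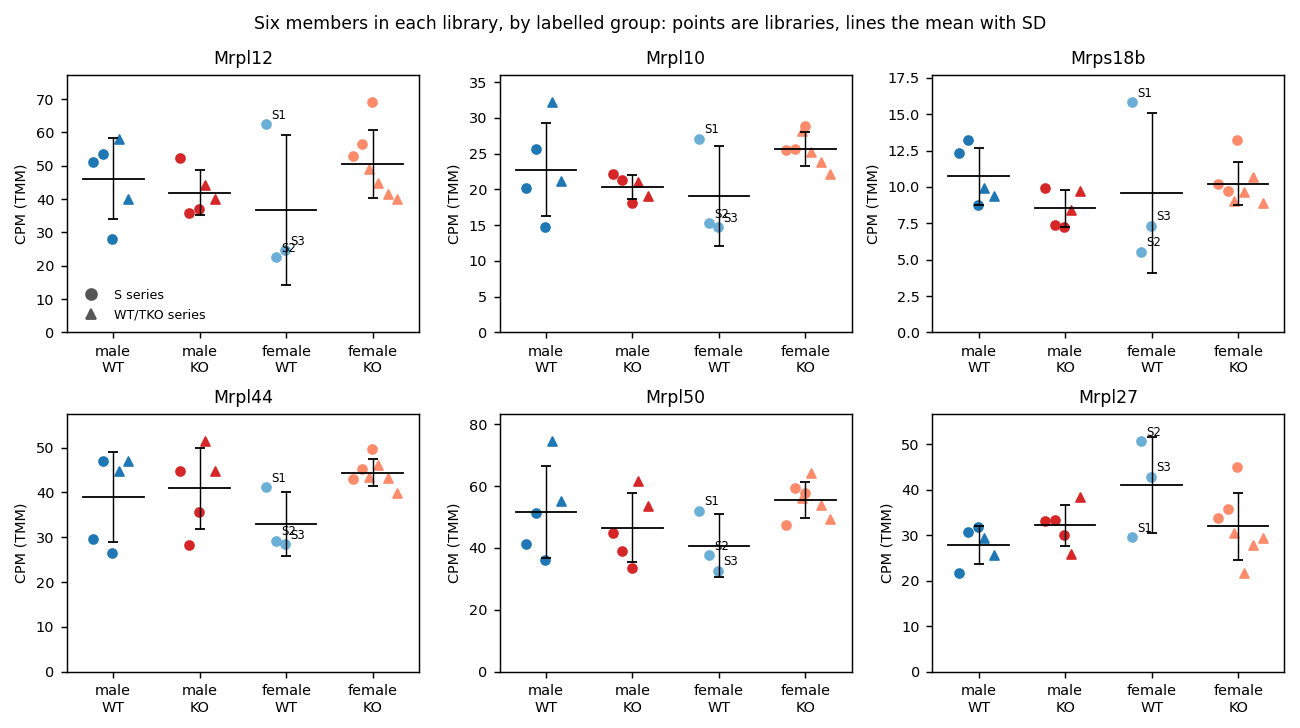
CPM of 6 members in each library by labelled group (circles for the S series, triangles for the WT/TKO series; lines show the mean with SD). In the group labelled female WT, S1 is apart from S2 and S3: Mrpl12 is at 62.6 CPM in S1 and at 22.6 and 24.6 CPM in S2 and S3.

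Over all 20 libraries, with labelled sex and series as covariates, no member was called (edgeR, 0 of 77, background 0% of 15187 genes, DESeq2 0 members and 0.079% of genes) and 1 had an unadjusted p under 0.05, against 4.83% of all genes. This gene was Mrps12 with a log2 fold change of 0.18 (95% interval 0.00 to 0.36, adjusted p = 0.996, edgeR). Mrps12 ran from 26.6 CPM over 32.7 to 40.9 CPM in the libraries labelled male WT (lowest, median, highest), from 28.6 over 39.8 to 44.0 CPM in male KO, from 27.5 over 29.6 to 33.6 CPM in female WT and from 31.4 over 36.9 to 45.04 CPM in female KO, so the genotypes overlapped in both labelled sexes. The 95% interval lay within 1.5-fold for all 77 members, against 9853 of 15187 genes. Thus a change of more than 1.5-fold was outside the interval of each member in this fit, with the labels as given. The extremes ran from -0.15 (Mrpl47), -0.12 (Mrps18b) and -0.08 (Mrps17) to 0.17 (Mrpl36) and 0.18 (Mrpl44). The median was 0.05 beside -0.01 for all genes, -0.07 without S4 to S9, 0.06 without S7, S9, S11 and S12 and 0.13 in the S series alone, with 0 members called in each.

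The difference between the genotype effects of the labelled sexes, tested as an interaction term, passed for no member (edgeR, 0 of 77, background 0% of 15187 genes, DESeq2 0 members and 0.125% of genes). At an unadjusted p under 0.05 there were 2 members, against 15.5% of all genes. These were Mrpl58 (log2 difference, male minus female, 0.59, adjusted p = 0.251, edgeR) and Mrpl14 (0.53). Mrpl27 had 0.46, and the lowest values were -0.68 for Mrpl12, -0.55 for Mrpl10 and -0.48 for Mrps18b. Without S1, these last 3 passed the adjusted p of 0.05, with log2 differences of -1.29, -0.88 and -1.04, where 7.41% of 15120 genes did. No member moved one way in every library of one labelled sex and the other way in every library of the other. Without S4 to S9 the value for Mrps18b was 0.04 and the median of the members 0.19, beside 0.06 in all libraries and -0.06 without S7, S9, S11 and S12, with 0 members called in each.

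**Figure D5:**
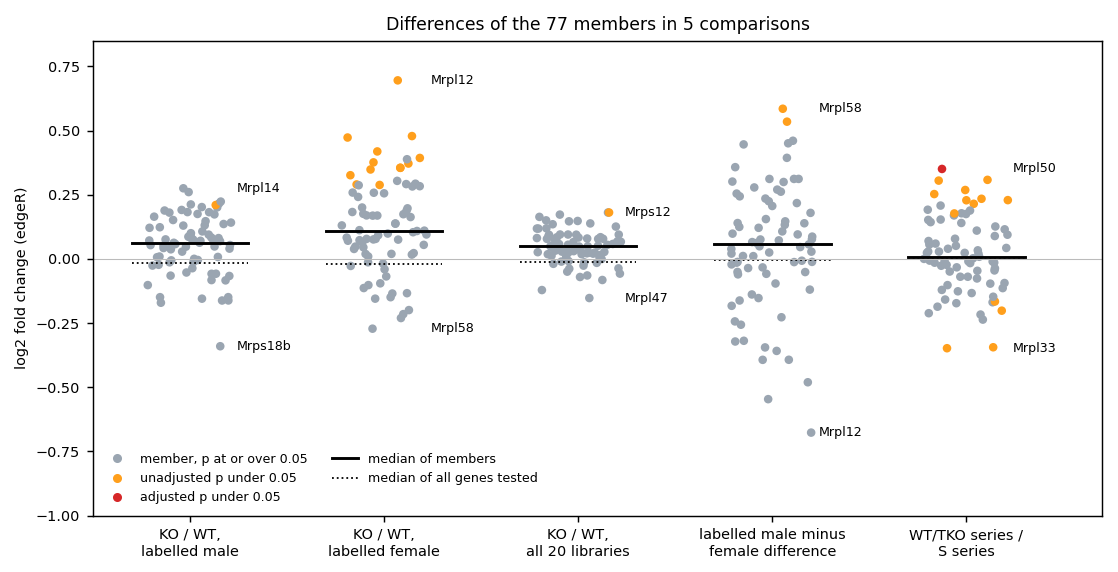
Log2 fold change of the 77 members in 5 comparisons (edgeR), with the median of the members (solid line) and of all genes tested (dotted line). Orange points have an unadjusted p under 0.05 (13 in the libraries labelled female, all positive) and the single red point, Mrpl50 in the series comparison, an adjusted p under 0.05.

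The 2 library series were compared with the 4 labelled groups as covariates. The series are sets of libraries with different names, and the labels do not say what these names stand for. Here 1 member passed the adjusted p of 0.05 and 14 an unadjusted p under 0.05, against 14.6% and 30.9% of 15187 genes (DESeq2 called 2 members, Mrpl50 and Mrpl33, and 19.3% of genes). The member called was Mrpl50, a large subunit protein found only in mitochondria, which was higher in the WT/TKO series (log2 fold change 0.35, standard error 0.115, adjusted p = 0.0443, edgeR). Mrpl50 had 74.4 and 55.2 CPM in WT1 and WT2, 61.6 and 53.6 CPM in TKO5 and TKO6, and 64.1, 56.2, 54.0 and 49.2 CPM in TKO2, TKO1, TKO3 and TKO4. In the S series it ran from 32.7 CPM in S3 to 59.2 CPM in S5, so the series overlapped. The call held in 9 of 20 fits that left out 1 library (adjusted p from 0.0282 to 0.123, edgeR), and was lost without WT1, WT2, TKO1, TKO2, TKO5, TKO6, S4, S7, S9, S11 or S12. It was also lost without the 4 libraries with high atrial transcripts (log2 fold change 0.17) and with the Myl7 level as covariate (0.13), and the adjusted p over the 12 other settings ran from 0.0175 to 0.844 (edgeR, DESeq2 or limma).

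Members moved both ways between the series, with 41 of 77 higher in the WT/TKO series and a median log2 fold change of 0.01. The lowest values were -0.35 for Mrpl33, -0.34 for Mrps6 and -0.24 for Mrps34, and the highest after Mrpl50 were 0.31 for Mrpl39 and 0.31 for Mrpl58. Which members passed depended on the setting. Limma on log2(FPKM + 1) called 8 members, all lower in the WT/TKO series, with Mrpl54 (-0.29) the lowest, where 12.2% of all genes were called lower. With upper-quartile scaling Mrpl33 (-0.39) was called in place of Mrpl50, with 15% of all genes. With the Y-linked level as covariate 6 were called, all higher, among them Mrpl39 (0.35) and Mrpl9 (0.32), where 7.52% of all genes were called higher. Without S7, S9, S11 and S12 4 were called, all lower: Mrps18a (-0.33), Mrpl35, Mrps15 and Mrpl15, where 5.29% of all genes were called lower. No member was called without S4 to S9 (0.332% of all genes), in the libraries labelled KO alone (11.1%), in those labelled male WT alone (0.0146%) or with the Myl7 level as covariate (0.698%). Without S6, 4 members (Mrpl50, Mrpl58, Mrps12 and Mrps25) and 10.8% of all genes were called. As shares of 77, the counts by limma, with the Y-linked covariate and without S7, S9, S11 and S12 were near the shares of all genes in their fits, and the counts by DESeq2, with upper-quartile scaling, without S6 and in the KO libraries alone were below them. Cytosolic ribosomal protein genes had a median of -0.30 in the same comparison, with 46 of 91 called lower and 1 higher.

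Other genes of mitochondrial translation were described from lists (chosen with earlier results known, as were the members). In the 3 comparisons of genotype and in the interaction none of their genes passed an adjusted p of 0.05 (edgeR). Of the 5 measured mitochondrial ribosomal proteins with other symbols, such as Dap3 and Ptcd3, the median log2 fold change was 0.01 in the libraries labelled male, 0.13 in those labelled female and 0.02 in all. For 14 translation factors these medians were -0.04, 0.25 and 0.03, for 22 assembly factors 0.05, 0.01 and 0.01, and for 19 mitochondrial aminoacyl-tRNA synthetases -0.07, 0.21 and 0.05. The 10 regulators, which include Nrf1, Gabpa, Yy1 and Ppargc1a, had -0.15, -0.05 and -0.08.

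Of the mitochondrially encoded mRNAs, which this ribosome translates, 12 were tested, and mt-Atp8 fell below the count minimum. The median of the 12 was 0.22 in the libraries labelled male, where all were positive. None of them had an unadjusted p under 0.05 there (background 4.68%). In the libraries labelled female it was -0.33 with all 12 negative and 2 at an unadjusted p under 0.05 (background 17.9%). The members had medians of 0.06 and 0.11 in the same fits. In the interaction, 9 of the 12 had an unadjusted p under 0.05 (background 15.5%), with a median of 0.67 and 0 called. S2, labelled female WT, had the highest level of these mRNAs of all libraries (330233 CPM).

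Between the series, 3 genes of these lists passed the adjusted p of 0.05 (edgeR), where 14.6% of all genes did, and they are given as values only. Tufm, the elongation factor that brings aminoacyl-tRNA to the mitochondrial ribosome, was at 237.8 ± 10.5 CPM in the WT/TKO series (n = 8) and at 189.8 ± 31.1 CPM in the S series (n = 12), a log2 fold change of 0.30 (adjusted p = 0.0379, edgeR). Mt-Nd5, a complex I subunit, had a log2 fold change of 0.65 (adjusted p = 0.00151, edgeR). Mpv17l2, a protein of the inner membrane needed for ribosome assembly, was at 14.6 ± 1.99 CPM in the WT/TKO series and at 18.3 ± 1.42 CPM in the S series, a log2 fold change of -0.34 (adjusted p = 0.0156, edgeR). All 14 translation factors were positive in this comparison (median 0.21), and 1 of them was called.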

How the data were processed

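Poly-A RNA of mouse hearts was sequenced as paired-end reads from 20 NEBNext Ultra libraries. Counts per gene and FPKM were deposited by the authors in 1 table. The submitters' processing notes name HISAT2, HTSeq 0.6.1p2, DESeq2 1.26.0 and GRCm38, and the strand setting of the counting is not given in the sources used here. FPKM was computed by the authors from gene lengths that match the merged exons of GENCODE release 21 within 1% for 72 members. The table has 0 value columns without a sample. Mrpl53, Mtrfr and the mitochondrial ribosomal RNAs were not analysed here.

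Deposited counts were tested with edgeR 4.0.16 (R 4.3.3; TMM, robust quasi-likelihood) over every gene that reached 10 counts in 3 or more fitted libraries, with Benjamini-Hochberg adjustment over all genes tested and calls at an adjusted p of 0.05. Library series was a covariate within each labelled sex, labelled sex and series over all libraries, and the 4 labelled groups in the series comparison. The study's methods used DESeq2, which is given here as an alternative. Other alternatives were limma 3.58.1 on log2(FPKM + 1) of the deposited FPKM, DESeq2 1.42.0, upper-quartile scaling, removal of the mt- genes, other filters and covariates, and leaving out libraries. The Y-linked covariate was not fitted in the libraries labelled female. The tests were tested on simulated data first. CPM values are TMM-scaled. Tables and plots were made with Python 3.11.15, pandas 2.3.3, numpy 2.4.6 and matplotlib 3.10.9.

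Members, lists and named genes were chosen with earlier results of these data known. Named were the 5 highest and 5 lowest members by mean FPKM, the members called in a comparison (with the 3 highest and 3 lowest log2 fold changes where fewer than 6 passed), the 3 with the largest spread, Mrps30, Mrps18a and Mrps36, and called genes of the lists. Members called only in an alternative were named after their values were seen. Promoters came from RefSeq (GRCm38.p6).

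Total counts were 12540002 to 20038593 per library. Over 44 pairs of libraries within groups 0 were identical, and the smallest chi-square per gene was 11.4, so none was merged. The study's methods describe 3 mice per group, against 5, 5, 3 and 7 libraries, and the labels do not tie libraries to mice. The p-values therefore measure only the spread between these samples, which may be technical.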

Additional observations from a re-analysis of the deposited data

Results flagged for a closer look

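In 99 groups of 4 to 10 libraries tested for a single distant library, 6 values stood out by Dixon's test, and chance gives about 1 in 20. Mrpl58 was at 54.05 CPM in TKO6, where the other libraries labelled male KO had 32.8 to 36.9 CPM. Mrps6 was at 32.5 CPM in S11, one of the libraries with high atrial transcripts, and the next male KO library had 17.2 CPM. Mrps18b was at 13.3 CPM in S6, and the next library labelled female KO had 10.7 CPM. Mrps18c was at 4.15 CPM in TKO5 (the next male KO library had 6.33 CPM) and at 6.47 CPM in S9 (the next male WT library had 5.16 CPM). Mrps30 was at 20.9 CPM in S7, and the next male WT library had 25.2 CPM. S7 and S9 are the libraries with the lowest median deviation of all members.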

How the results depend on the processing

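In the libraries labelled female, 1 member (Mrpl12) was called with no filter on low counts (4.06% of all genes), and the median log2 fold change was -0.041 without S4 to S6 (no series covariate, since genotype and series then coincide) and -0.021 with the Myl7 level as covariate. The interaction median was 0.19 without S4 to S9. Between the series, 2 members were called by DESeq2 (19.3% of all genes), 8 lower by limma on log2(FPKM + 1) (12.2%), 6 higher after adding the Y-linked level (7.52%), 4 lower without S7, S9, S11 and S12 (5.29%, median -0.14), 0 without S4 to S9 (0.332%), 0 in KO libraries alone (11.1%), 0 in WT libraries labelled male alone (0.0146%, median 0.22) and 0 with the Myl7 level as covariate (0.698%, median -0.15). Directions turned over all libraries for Mrpl47 (0.041 in the WT/TKO libraries alone), Mrps17 (0.0064 in the S libraries alone) and Mrps18b (0.023 without S7, S9, S11 and S12), in the interaction for Mrps18b (0.040 without S4 to S9), and between the series with the Myl7 covariate for Mrpl39 (-0.025) and Mrps6 (0.12). Without the mt- genes in the library size, the summed member level was 5378 CPM (male WT), 5626 (male KO), 5600 (female WT) and 5712 (female KO). The cause of these shifts was not tested.

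Leaving out 1 library gave 0 called members in the libraries labelled male and over all libraries, 0 to 13 in those labelled female, 0 to 3 in the interaction and 0 to 4 between the series (4 without S6, with 10.8% of all genes). Only without S1 did the female and interaction counts leave 0. The median log2 fold change of the members ran from -0.0024 to 0.12 (labelled male), 0.049 to 0.19 (labelled female) and 0.020 to 0.073 (all libraries). It ran from -0.027 to 0.14 in the interaction and from -0.029 to 0.062 between the series. In these fits the log2 fold change of Mrps18b over all libraries ran from -0.25 to 0.023, and only leaving out S1 made it positive. The 30 results for single named members were counted once in each of the other settings. Of these combinations of result and setting, 348 kept direction and call, 5 gained and 7 lost the call, and 6 turned.

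No paired analysis was possible because the replicate numbers shared by the labelled groups were given in accession order and only name the libraries. Alternatives on atrial transcripts, and those leaving out S4 to S6 in the labelled female comparison and S4 to S9 in the interaction, were chosen after seeing the data. Depth was lowest for Mrps18c, with 50 to 119 counts per library.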

Other observations

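The nuclear genes that transcribe the mitochondrial genome (7 listed) and the 19 mitochondrial aminoacyl-tRNA synthetases, which load amino acids onto the transfer RNAs used by this ribosome, had median log2 fold changes of 0.15 and 0.16 in the WT/TKO series against the S series, with 0 called in either list (edgeR) and 3 and 8 genes at an unadjusted p under 0.05, where 14.6% and 30.9% of all genes passed the respective limits. Of the synthetases 17 of 19 were higher in the WT/TKO series, while of the 7 transcription genes 4 were higher and 3 lower. Log2 fold changes of the transcription genes ran from -0.85 to 0.30. Of their 3 genes at an unadjusted p under 0.05, 2 were higher and 1 lower. Over all libraries, 15 of the 19 synthetases were higher in KO with a median of 0.05 and 0 at an unadjusted p under 0.05.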
